A study of Mus musculus with 24 samples.

Results

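The genes of de novo lipogenesis, the route by which a cell makes fatty acids from sugar and other small carbon sources, were followed in brown adipose tissue (BAT) of mice kept warm or cold. The members were set by name as 6 enzymes (Acly, Acss2, Acaca, Acacb, Fasn and Me1) and 3 regulators (Srebf1, Mlxipl and Thrsp). All 9 were among the 12615 genes of the count table, and all 9 passed the filter on low counts that left 12485 genes for testing.

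In this pathway, citrate leaves the mitochondrion and is split to acetyl-CoA, acetyl-CoA carboxylase turns it into malonyl-CoA, and fatty acid synthase joins malonyl units into palmitate with NADPH as the reductant. The transcription factors SREBP1 and ChREBP, products of Srebf1 and Mlxipl, raise the transcription of these enzymes in response to insulin and to sugar. Cold is known to raise lipogenesis in BAT alongside the burning of fatty acids, so that the fat store of the brown adipocyte is rebuilt while it is used.

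BAT from 24 mice was profiled by sequencing 3′ tags, with each transcript read once whatever its length, so levels can be set side by side between genes. The labels form 4 groups of 6 mice, Cre- and BATdKO, each at 30°C and at 8°C. Every mouse was homozygous for floxed alleles of Tbl1xr1 (TBLR1) and Tbl1x (TBL1), the 2 genes of a transcriptional cofactor pair, and every mouse received tamoxifen 3 weeks before the temperature protocol began. BATdKO mice also carried Ucp1-CreERT2, a recombinase active after tamoxifen in cells that use the Ucp1 promoter, so that other cells of the tissue keep both genes, whereas Cre- mice did not carry it. No group carried Ucp1-CreERT2 without the floxed alleles, so the recombinase and the deletion cannot be told apart. All mice were raised at 22°C. The warm groups then spent 4 days at 30°C, and the cold groups were taken through 1 day each at 18°C, 16°C and 12°C to 6 days at 8°C. The labels describe females of unstated strain given tamoxifen at an age written as 5 years. The study's methods give that age in weeks, a C57BL6/N background and a shorter time at 8°C, and another passage of the study describes this sequencing as done on males, with fewer mice per group than the labels list. Library numbers form 1 unbroken run per temperature, so temperature and library run cannot be told apart.

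Tags of both targeted genes were more abundant under the BATdKO label. At 8°C Tbl1xr1 lay between 33.8 and 44.3 CPM (counts scaled to a library of 1000000 counts, with library sizes normalized by TMM) under the BATdKO label and between 18.2 and 24.6 under the Cre- label (adjusted p = 0.00349, edgeR's quasi-likelihood test). Tbl1x lay between 42.4 and 63.6 and between 38.7 and 43.8 CPM (adjusted p = 0.0633). At 30°C neither passed the threshold (adjusted p = 0.36 and 0.205). A 3′ tag outside the deleted part does not measure a deletion, and the direction goes against a plain loss of transcript, so every genotype difference here is one between libraries labelled BATdKO and libraries labelled Cre-. An exchange of the labels, which would turn the sign of every genotype value, was not tested.

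Total counts ran from 2738613 to 11527643 per library, except for m4 of the Cre- 30°C group, which held 699703. The tissue label was checked against marker genes. Ucp1, the uncoupling protein of brown adipocytes, had a median of 129.7 CPM in Cre- 30°C, 314 in BATdKO 30°C, 1516 in Cre- 8°C and 1768 in BATdKO 8°C. The brown adipocyte list has 12 genes, of which Adipoq, Fabp4, Plin1 and Pparg mark fat cells in general. Together the 12 held a median of 0.175, 0.358, 0.394 and 0.453% of counts in the same order. Liver genes were more abundant in every library. All 12 genes of the liver list were in the table, none was at 0, Alb (albumin) ran from 5685 to 14390 CPM, and the list held 4.21 to 5.26% of counts in Cre- 30°C, 3.62 to 4.70% in BATdKO 30°C, 3.68 to 4.79% in Cre- 8°C and 3.40 to 4.85% in BATdKO 8°C. Liver is itself a tissue of high lipogenesis, and these libraries do not separate transcripts by source. In bulk tissue, fewer cells of a type and less RNA per cell cannot be told apart either. Skeletal muscle genes (13 of 14 in the table) held 0.000757 to 1.00% of counts, with the top 2 shares in m3 and m1 of Cre- 30°C. Their median share was 0.0498% in Cre- 8°C and 0.00631% in BATdKO 8°C.

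RefSeq sequence next to the start of transcription is shown for 4 members that rose in the cold in Cre- libraries and whose RefSeq start lies within 180 bases of the gene start in GENCODE. They are given 5′ to 3′ on the gene's strand (build GRCm38.p6), as the 250 bases before the start. Capitals mark CCAAT boxes (CCAAT or ATTGG) and GC boxes (GGGCGG or CCGCCC).
Fasn, chr11:120824548-120824797, minus strand: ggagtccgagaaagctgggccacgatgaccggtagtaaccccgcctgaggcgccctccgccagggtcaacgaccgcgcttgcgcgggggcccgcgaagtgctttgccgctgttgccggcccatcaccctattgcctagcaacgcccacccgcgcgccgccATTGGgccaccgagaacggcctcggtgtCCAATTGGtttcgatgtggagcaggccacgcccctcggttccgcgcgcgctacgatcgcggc
Acly, chr11:100528001-100528250, minus strand: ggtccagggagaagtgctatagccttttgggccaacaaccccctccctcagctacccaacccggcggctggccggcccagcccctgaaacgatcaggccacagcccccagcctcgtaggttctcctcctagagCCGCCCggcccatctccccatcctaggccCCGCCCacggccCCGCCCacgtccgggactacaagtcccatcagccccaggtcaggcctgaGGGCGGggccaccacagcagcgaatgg
Me1, chr9:86695915-86696164, minus strand: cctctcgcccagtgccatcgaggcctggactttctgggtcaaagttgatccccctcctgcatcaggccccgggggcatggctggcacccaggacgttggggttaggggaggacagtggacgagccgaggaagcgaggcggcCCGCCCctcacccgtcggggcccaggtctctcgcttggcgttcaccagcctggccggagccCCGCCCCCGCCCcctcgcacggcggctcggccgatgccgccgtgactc
Thrsp, chr7:97417551-97417800, minus strand: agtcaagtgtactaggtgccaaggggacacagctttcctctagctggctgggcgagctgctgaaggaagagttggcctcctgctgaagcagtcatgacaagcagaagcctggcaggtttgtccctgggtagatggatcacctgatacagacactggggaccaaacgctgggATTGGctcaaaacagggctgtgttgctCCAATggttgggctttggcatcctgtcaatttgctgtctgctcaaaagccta
The windows shown for Fasn and Thrsp held CCAAT boxes and no GC box, and those shown for Acly and Me1 held GC boxes and no CCAAT box. A further RefSeq start of Me1, inside the gene, had a CCAAT box 208 bases before it and no GC box. Fasn had CCAAT letters beginning 90, 62 and 59 bases before its start, of which the last pair share 2 letters (CCAATTGG), and Thrsp had them at 79 and 52 bases. Acly had 4 GC boxes and Me1 had 3. Over all 32851 RefSeq windows of this length, 33.8% held a CCAAT box and 32.7% a GC box on either strand, so neither is rare. The 9 members matched 13 windows, of which 8 held a CCAAT box and 6 a GC box. The E-box CACGTG, the core of the element that ChREBP reads, was found in 1 of the 13 windows, at one of the starts of Mlxipl itself, against 6.02% of all windows. The letters TCACNCCAC, a form of the element that SREBP reads, were found in the window of the other Mlxipl start (TCACACCAC) against 1.05% of all windows. A match of letters is a description and not a site in use. The RefSeq starts of Acaca and Acacb lay 65766 and 18983 bases inside the GENCODE genes and their windows are not shown. Both are still among the 13 windows counted. So are starts 17001 bases inside Mlxipl, 12110 and 1954 inside Srebf1 and 8676 inside Me1. Only the letters given were sought, so other forms of these elements were not counted.

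The members covered a wide range of levels. Fasn was the 48th most abundant of the 12485 genes, with a mean of 2784 CPM over the 24 libraries, followed by Thrsp at 796, Acly at 363, Acaca at 338, Me1 at 333, Acacb at 134.5, Mlxipl at 124, Acss2 at 72.3 and Srebf1 at 11.2. Acly, Acaca and Me1 differed by less than the spread of each over the libraries. Together the 9 held a median of 0.425% of counts in Cre- 30°C, 0.427% in BATdKO 30°C, 0.673% in Cre- 8°C and 0.486% in BATdKO 8°C. Fasn alone gave 52.4 to 58.1% of their counts by group. The Cre- 8°C libraries, at 0.566 to 0.804%, did not overlap with any other group, the next highest library being at 0.55% in BATdKO 8°C. Exons of Me1, Acss2, Srebf1 and Mlxipl overlap those of a gene on the opposite strand, and the counting is not stated to use strand, so reads of those partners cannot be told apart from theirs.

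**Figure D1:**
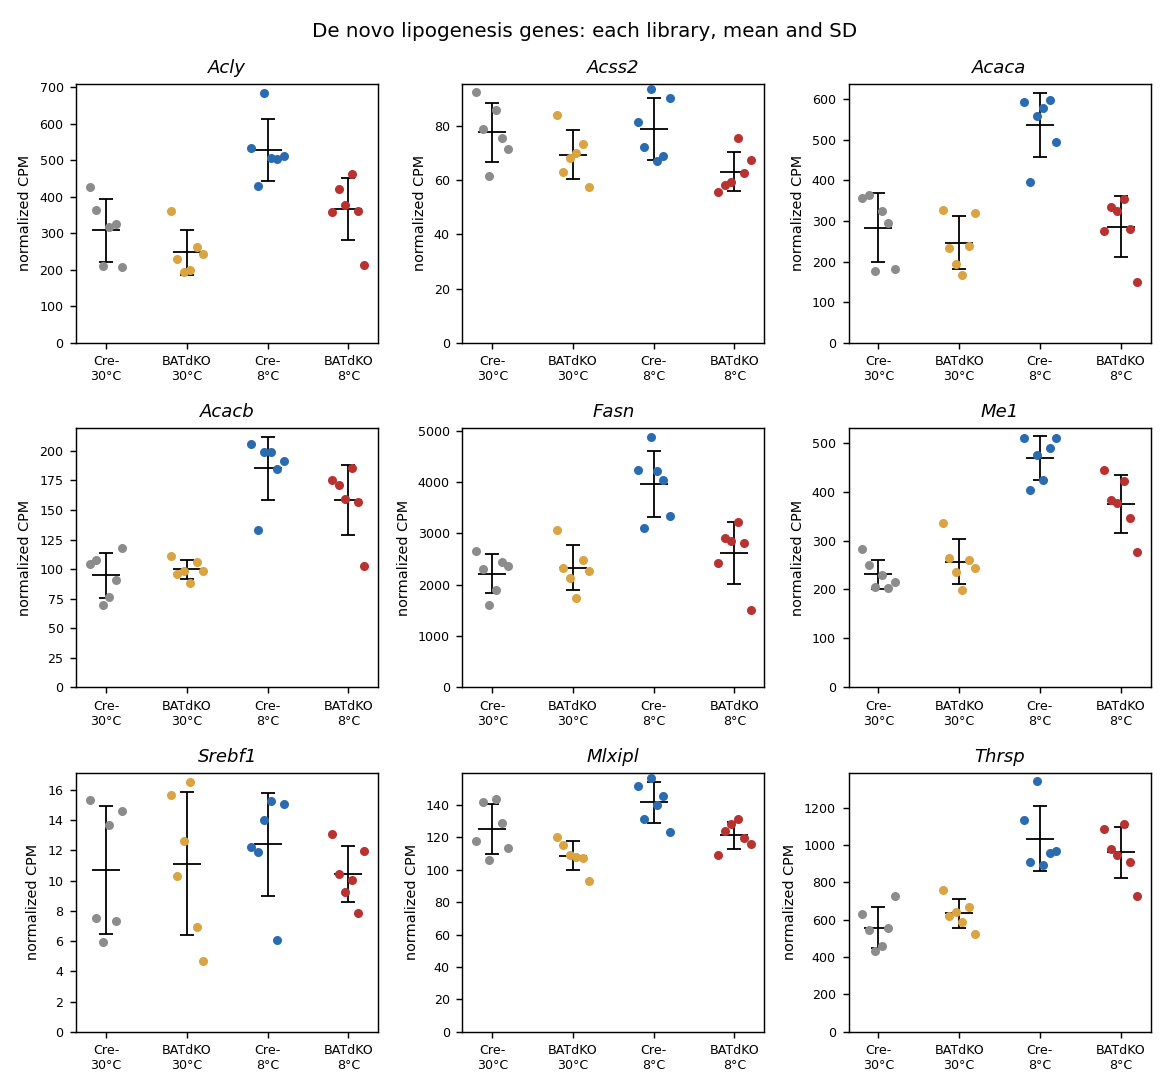
Normalized CPM of the 9 members (vertical axes, from 0) in the 24 libraries by group, 1 point per mouse, with the mean and SD of 6 mice. Fasn, Acaca, Acly, Me1, Acacb and Thrsp are higher in every Cre- 8°C library than in any Cre- 30°C library, and m6 of BATdKO 8°C is the lowest of its group for Fasn, Acaca, Acacb, Acly, Me1 and Thrsp.

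The first comparison set BATdKO libraries against Cre- libraries in the cold. Acaca, the cytosolic acetyl-CoA carboxylase that commits acetyl-CoA to fatty acid synthesis, fell by 46.6%, and Fasn, fatty acid synthase, fell by 33.9%. The other 7 members did not pass the adjusted threshold of 0.1 (edgeR's quasi-likelihood test, Benjamini-Hochberg over 12485 genes), although the fitted change of all 9 was below 0, as it was for 50% of all genes. Of all genes tested 1.82% passed, and 1.12% passed as lower. The members' median log2 fold change was -0.32, against -6.1e-05 for all genes. At an unadjusted p under 0.05, 6 of 9 members were lower, against 5.47% of all genes. The members vary together within groups (median Pearson r 0.48 over their 36 pairs). Counts of members here and below are therefore not counts of independent genes. With only the 2 cold groups in the model, Acly (adjusted p = 0.0311), Me1 (0.0653) and Acss2 (0.0797) passed as well. That model also called more of all genes, 477 of 11892 in place of 227 of 12485. Scaling by total count added Me1 (0.0818) and Acss2 (0.0863). It called 296 of 12485 genes, and 22.6% of all calls were then higher in place of 38.3%.

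Acetyl-CoA for the pathway comes from citrate through Acly, ATP citrate lyase, and from acetate through Acss2, the cytosolic acetyl-CoA synthetase. Acly ranged from 428.5 to 685 CPM (median 509) in Cre- 8°C and from 214 to 464 (median 369) in BATdKO 8°C. Of the 6 BATdKO libraries, 5 lay below every Cre- library. The log2 fold change was -0.53 (SE 0.18, adjusted p = 0.195). Acss2 was at 67.1 to 93.8 CPM (median 76.9) and 55.8 to 75.5 (median 61.0), with 4 BATdKO libraries below every Cre- library (log2 fold change -0.32, SE 0.11, adjusted p = 0.186).

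The 2 acetyl-CoA carboxylases differed from each other. Acaca ranged from 397 to 598 CPM (median 569) in Cre- 8°C and from 148 to 355 (median 302) in BATdKO 8°C. It was the 1 member whose groups did not overlap, against 0.873% of all genes that did not overlap and were lower. The log2 fold change was -0.91 (SE 0.20, adjusted p = 0.0153), and the adjusted p stayed between 0.00692 and 0.0463 when any 1 of the 24 mice was left out. Acacb, the carboxylase of the mitochondrial surface, whose malonyl-CoA restrains the entry of fatty acids for oxidation, ranged from 133 to 206 CPM (median 195) and from 102.5 to 185 (median 165). Those ranges overlapped over most of their length (log2 fold change -0.23, SE 0.13, adjusted p = 0.637).

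Fasn ranged from 3104 to 4883 CPM (median 4121) in Cre- 8°C and from 1507 to 3212 (median 2833) in BATdKO 8°C. Only the highest BATdKO library, m4, reached into the Cre- range. The log2 fold change was -0.60 (SE 0.15, adjusted p = 0.0511). This call is near the threshold. It was lost when m1, m3 or m4 of Cre- 8°C (adjusted p = 0.11, 0.134 and 0.105) or m1 or m6 of BATdKO 8°C (adjusted p = 0.111 and 0.107) was left out, and it was also lost with the skeletal muscle share as a covariate, where the log2 fold change was -0.58 (adjusted p = 0.106). The muscle share was itself lower under the BATdKO label at 8°C, as given above. With the liver share as a covariate the adjusted p was 0.0175 for Fasn and 0.00818 for Acaca, with log2 fold changes of -0.57 and -0.88. Me1, malic enzyme, makes NADPH in the cytosol. It ranged from 403 to 510 CPM (median 483) in Cre- 8°C and from 277 to 444 (median 379) in BATdKO 8°C, with 4 BATdKO libraries below every Cre- library. Its log2 fold change was -0.32 (SE 0.11, adjusted p = 0.222, and 0.04995 with the liver share as a covariate).

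The regulators had smaller fitted changes than Acaca and Fasn. Srebf1 gave only 30 to 141 counts per library at 8°C, at 6.05 to 15.3 CPM (median 13.1) in Cre- and 7.86 to 13.1 (median 10.2) in BATdKO, and every BATdKO library lay within the Cre- range. Its log2 fold change of -0.28 had an SE of 0.27, and its 95% interval, -0.81 to 0.25, holds both 0 and the value of Fasn. Mlxipl (ChREBP) was at 124 to 157 CPM (median 143) and at 109 to 132 (median 122), with a log2 fold change of -0.22 (SE 0.08, adjusted p = 0.264). Thrsp, a lipogenic protein induced by thyroid hormone and named Spot 14, was at 893 to 1341 CPM (median 960.05) and at 729 to 1109 (median 963). The medians of Thrsp were nearly equal (log2 fold change -0.11, SE 0.12, adjusted p = 0.893, 95% interval -0.35 to 0.14).

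**Figure D2:**
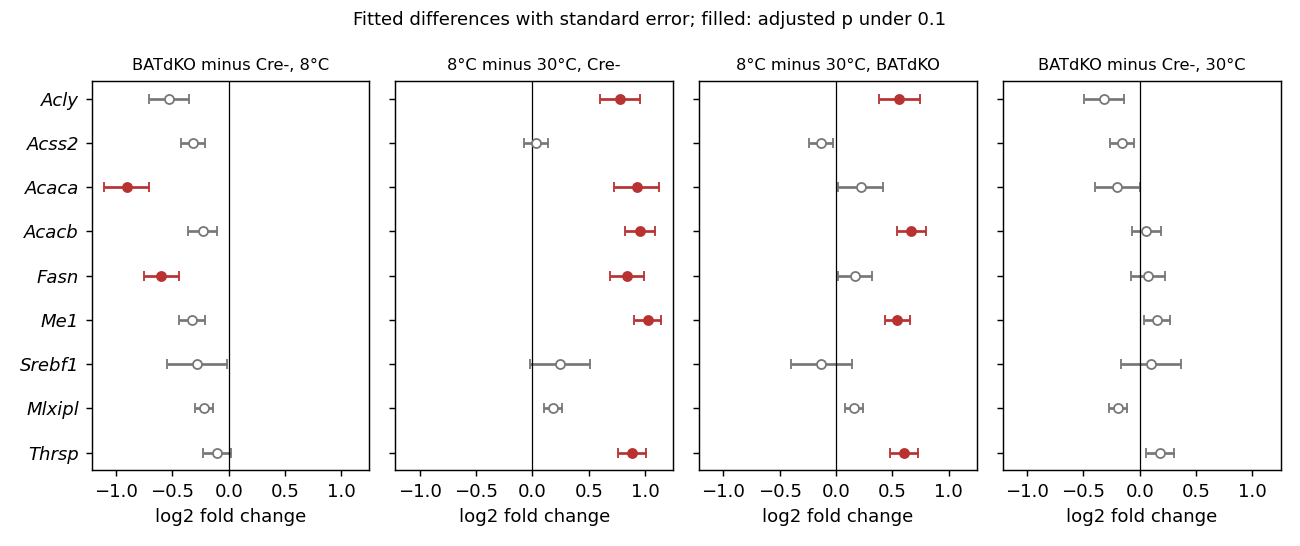
Fitted log2 fold changes of the 9 members (horizontal axes) with their standard errors in the 4 comparisons, from 1 model over 24 libraries; filled red points have an adjusted p under 0.1. Acaca and Fasn are the filled points for genotype at 8°C (-0.91 and -0.60), 6 members are filled for cold in Cre-, 4 for cold in BATdKO and none for genotype at 30°C.

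The second comparison set 8°C libraries against 30°C libraries of Cre- mice. Of the 9 members 6 rose, by 71.3 to 103%, and none fell. Of all genes 9.15% passed the threshold, 5.57% as higher and 3.59% as lower. In the same 6 members, Me1, Acacb, Acaca, Thrsp, Fasn and Acly, every 8°C library lay above every 30°C library, against 2.19% of all genes. The members' median log2 fold change was 0.84, against -0.02 for all genes. Scaling by total count in place of TMM moved that median of all genes to -0.20, and 13.3% of the calls were then higher in place of 60.8%, while the same 6 members rose. The brown adipocyte marker share was also higher at 8°C, at a median of 0.394% of counts beside 0.175%, and its part in these values was not tested. Its genes did not move as one. In Cre- libraries Ucp1 went from a median of 129.7 to 1516 CPM. Adipoq went from 220 to 149 and Pparg from 25.0 to 21.4, and neither is particular to brown adipocytes. The other genes of the list had higher medians at 8°C.

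Me1 rose the furthest, from 203 to 282 CPM (median 223) at 30°C to the 403 to 510 given above (log2 fold change 1.02, SE 0.12, adjusted p = 1.26e-06). Both carboxylases rose by similar amounts. Acacb went from 69.3 to 118 CPM (median 97.8) at 30°C to a median of 195 (log2 fold change 0.95, SE 0.13, adjusted p = 1.88e-05), and Acaca from 176.5 to 364 CPM (median 310.0) to a median of 569 (log2 fold change 0.93, SE 0.20, adjusted p = 0.004). Fasn lay between 1611 and 2658 CPM (median 2336) at 30°C, so its lowest cold library, at 3104, was above all warm ones (log2 fold change 0.84, SE 0.15, adjusted p = 0.000666). Acly lay between 207 and 427 CPM (median 322) at 30°C, with its highest warm library just under its lowest cold library (log2 fold change 0.78, SE 0.18, adjusted p = 0.00746). Its call was lost with the liver share as a covariate (log2 fold change 0.56, adjusted p = 0.107). In that edgeR fit Acaca also had a smaller rise and was nearer the threshold (0.67, adjusted p = 0.0857). Fasn was at 0.61 (adjusted p = 0.0162) and Me1 at 0.81 (adjusted p = 4.41e-06). The median liver share was 4.885% in Cre- 30°C and 4.115% in Cre- 8°C.

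Among the regulators, Thrsp rose with the enzymes, from 432 to 728 CPM (median 549) at 30°C to a median of 960.05 (log2 fold change 0.88, SE 0.12, adjusted p = 2.67e-05). Mlxipl was at 106 to 144 CPM (median 123) at 30°C, with a log2 fold change of 0.19 (SE 0.08, adjusted p = 0.2). Srebf1 at 30°C was at 5.95, 7.31 and 7.52 CPM in m3, m5 and m2 and at 13.7, 14.6 and 15.3 in m4, m6 and m1. Its warm libraries thus spanned the whole cold range (log2 fold change 0.25, SE 0.27, adjusted p = 0.693). Acss2, at 61.5 to 92.6 CPM (median 77.2), had a log2 fold change of 0.03 (SE 0.11, adjusted p = 0.928, 95% interval -0.18 to 0.24), and the sign of that value turned when libraries were scaled by total count.

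In BATdKO libraries cold was followed by a rise of 4 members, Acacb, Thrsp, Me1 and Acly. In this comparison 7.07% of all genes passed, 3.76% as higher and 3.31% as lower. With scaling by total count 9.07% of the calls were higher in place of 53.2%. Under it Acacb, Thrsp and Me1 still rose, the call of Acly was lost (adjusted p = 0.171) and Acss2 was called lower (log2 fold change -0.32, adjusted p = 0.053). No member had groups without overlap, against 1.75% of all genes that did so as higher. The cold Cre- libraries of the second comparison are also the controls of the first, so a low or high value there moves both in opposite directions, whereas the comparison within BATdKO uses none of them and shares its cold libraries with the first. Acacb ranged from 88.3 to 111 CPM (median 98.4) at 30°C, and 5 of the 6 cold libraries were above all warm ones (log2 fold change 0.67, SE 0.13, adjusted p = 0.00194). Thrsp ranged from 525 to 757 CPM (median 632) at 30°C, again with 5 of 6 cold libraries above (log2 fold change 0.60, SE 0.12, adjusted p = 0.00364). Me1 ranged from 198 to 337 CPM (median 253) at 30°C (log2 fold change 0.54, SE 0.11, adjusted p = 0.00427).

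Acly ranged from 193 to 362 CPM (median 236) in warm BATdKO libraries (log2 fold change 0.56, SE 0.18, adjusted p = 0.0741). That call was lost in 9 of 24 fits that left out 1 mouse, those without m2 to m6 of BATdKO 30°C or m1 to m4 of BATdKO 8°C, with log2 fold changes of 0.48 to 0.57 and adjusted p from 0.102 to 0.182. It was also lost with robust dispersion estimates, at the same fold change (adjusted p = 0.115). Acaca and Fasn did not pass. Acaca was at 166 to 327 CPM (median 236) at 30°C beside 148 to 355 at 8°C (log2 fold change 0.22, SE 0.20, adjusted p = 0.635), and Fasn at 1733 to 3059 (median 2299.6) beside 1507 to 3212 (log2 fold change 0.17, SE 0.15, adjusted p = 0.635). Their 95% intervals, -0.17 to 0.61 and -0.13 to 0.47, leave room for a rise smaller than that in Cre- libraries. Srebf1 (4.66 to 16.6 CPM at 30°C, log2 fold change -0.13), Mlxipl (93.3 to 119.9 CPM, 0.16) and Acss2 (57.5 to 84.0 CPM, -0.13) did not pass either.

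At 30°C no member passed between the labels, and 0% of all genes passed the adjusted threshold of edgeR's quasi-likelihood test. An unadjusted p under 0.05 was found for 1303 genes (10.4%), and DESeq2 called 90 genes, none of them a member. The count of 0 depends on single libraries. Without m6 of Cre- 30°C edgeR called 369 genes, without m2 of Cre- 30°C 67, without m4 of BATdKO 30°C 47 and without m6 of BATdKO 30°C 41, and no member was among them in any of these fits. Fitted log2 fold changes ran from -0.31 for Acly to 0.18 for Thrsp, with 5 above and 4 below 0, beside 47.8% of all genes above 0. The smallest p was that of Mlxipl, at 109 CPM (median; BATdKO) and 123 (Cre-), with a log2 fold change of -0.19 (unadjusted p = 0.0243, adjusted p = 0.385). The difference between the 2 cold responses was tested as an interaction. No member passed, beside 0.0961% of all genes, and the fitted interaction was below 0 for all 9 and for 49% of all genes. It was -0.71 for Acaca (unadjusted p = 0.018, adjusted p = 0.511), -0.67 for Fasn (0.00435 and 0.358) and -0.48 for Me1 (0.0065 and 0.423). After correction over all genes, no member's cold response was shown to differ between the labels.

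Ratios within a library do not depend on how libraries are scaled, and 8 were tested with exact two-sided permutation tests of 6 against 6 libraries. The ratio of Acaca to Acacb counts was 2.90 ± 0.21 (SD, n = 6) in Cre- 8°C, from 2.58 to 3.23, and 1.79 ± 0.23 in BATdKO 8°C, from 1.45 to 2.04. The groups did not overlap, and the difference in mean log2 ratio was -0.71 (exact p = 0.00217, the smallest this design can give, adjusted over 8 tests 0.00866). Among BATdKO libraries this ratio was lower at 8°C than at 30°C, at 1.79 ± 0.23 beside 2.45 ± 0.54 (log2 difference -0.44, exact p = 0.0173, adjusted 0.0346). In Cre- libraries it was 3.06 ± 0.91 at 30°C and 2.90 ± 0.21 at 8°C (log2 difference -0.01, exact p = 0.952), where the warm libraries spread from 1.54 to 4.22. The shallow library m4 of Cre- 30°C gave the ratio of 4.22, and without it the log2 difference was 0.09. At 30°C the difference between the labels did not pass (log2 difference -0.28, exact p = 0.281, adjusted 0.375). Without m6 of Cre- 30°C, the library with the lowest ratio, that difference was -0.46 (exact p adjusted 0.0589, under the threshold of 0.1).

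The ratio of Acly to Acss2 counts moved with temperature, as a ratio of transcripts and not of acetyl-CoA supply from citrate and acetate. It was 3.92 ± 0.71 in Cre- 30°C and 6.71 ± 0.79 in Cre- 8°C (n = 6 each), with no overlap (log2 difference 0.79, exact p = 0.00217, adjusted 0.00866). In BATdKO libraries it was 3.56 ± 0.64 at 30°C and 5.85 ± 1.40 at 8°C (log2 difference 0.69, exact p = 0.0108, adjusted 0.0289), with m6 at 3.17 and the other cold libraries at or above 5.78. Between the labels it did not pass at either temperature (adjusted p = 0.375 at 8°C and 0.401 at 30°C, exact tests).

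**Figure D3:**
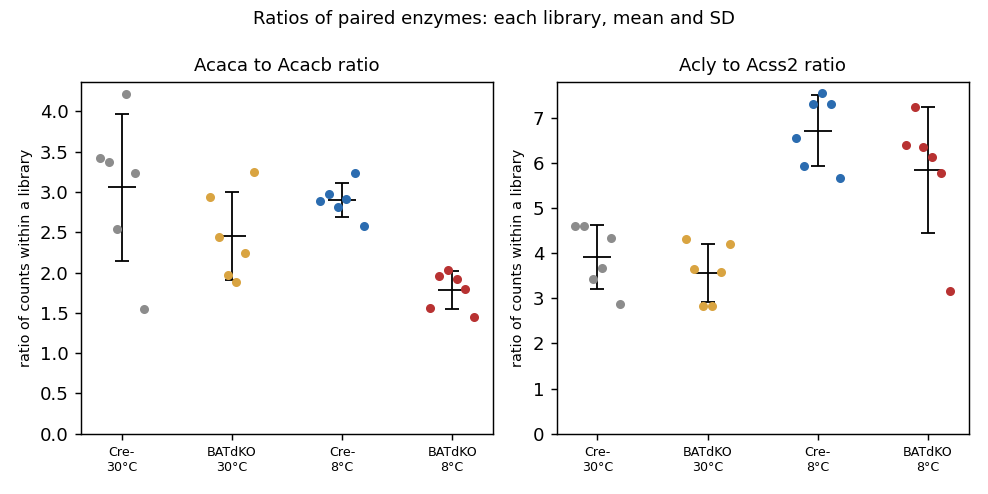
Ratios of counts within each library (vertical axes, from 0) by group, 1 point per mouse, with the mean and SD of 6 mice; the left panel is Acaca over Acacb and the right panel Acly over Acss2. The Acaca to Acacb ratio of all BATdKO 8°C libraries, up to 2.04, is below that of all Cre- 8°C libraries, from 2.58, and the Acly to Acss2 ratio is higher in all Cre- 8°C libraries, from 5.67, than in all Cre- 30°C libraries, up to 4.61.

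Other genes of the pathway were read from lists of 72 genes, of which 71 were tested. In BATdKO against Cre- at 8°C, 2 rose (2.82%) and 5 fell (7.04%), beside 0.697% and 1.12% of all genes. These lists were chosen with earlier results known, so the shares are descriptions. In the cold 15 rose and 4 fell in Cre- libraries, and 12 rose and none fell in BATdKO libraries. As shares of the 71 these are 21.1% and 5.63% in Cre-, beside 5.57% and 3.59% of all genes, and 16.9% and 0% in BATdKO, beside 3.76% and 3.31%. The counts of each list below are to be read against these shares of all genes. The lists' median log2 fold changes were near 0 in all of these, 0.03, 0.05 and 0.10.

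Of 10 genes of citrate export and acetyl-CoA supply, 1 fell with the label at 8°C, 4 rose and 1 fell in the cold in Cre- libraries, and 2 rose in BATdKO libraries. The gene that fell with the label was Slc25a1. It encodes the mitochondrial citrate carrier, the step before Acly. It ranged from 146 to 229 CPM (median 197) in Cre- 8°C and from 92.9 to 131 (median 123) in BATdKO 8°C without overlap (log2 fold change -0.72, SE 0.10, adjusted p = 0.000173). In the cold it rose in Cre- libraries (log2 fold change 0.84, adjusted p = 5.2e-06) and had a value of 0.25 in BATdKO libraries (adjusted p = 0.192), with an interaction of -0.59 (adjusted p = 0.168). Slc16a1, a monocarboxylate transporter, rose in the cold under both labels (log2 fold changes 1.16 and 0.92). Pdha1, of pyruvate dehydrogenase, rose (0.67) and Pcx, pyruvate carboxylase, fell slightly (-0.18) in Cre- libraries.

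Of 8 genes of NADPH supply beside Me1, 1 fell with the label at 8°C, 2 rose and 1 fell in the cold in Cre- libraries, and 2 rose in BATdKO libraries. Taldo1, the transaldolase of the pentose phosphate pathway, fell with the label at 8°C, from 189.5 to 311 CPM (median 235) to 125 to 175 (median 154) without overlap (log2 fold change -0.67, SE 0.12, adjusted p = 0.00253). It rose in the cold under both labels (1.00 and 0.49). Pgd, which makes NADPH in the same pathway, rose in the cold under both labels (1.28 and 0.82), while its value for the label at 8°C was -0.36 (adjusted p = 0.392). Idh2, the mitochondrial NADPH-linked isocitrate dehydrogenase, fell in the cold in Cre- libraries (-0.28).

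Of 11 genes that act on acetyl-CoA carboxylase or malonyl-CoA, 1 rose and 2 fell with the label at 8°C, 2 rose and 2 fell in the cold in Cre- libraries, and 1 rose in BATdKO libraries. Subunits of AMP-activated kinase, which phosphorylates and restrains the carboxylases, moved in both directions. Prkaa1, a catalytic subunit, fell with the label at 8°C, from 7.03 to 10.2 CPM to 4.22 to 6.54 without overlap (log2 fold change -0.79, adjusted p = 0.0128), and rose in the cold in Cre- libraries (0.62). Prkag2, a regulatory subunit, rose with the label (0.43, adjusted p = 0.0781) and fell in the cold in Cre- libraries (-0.64). Bckdk, a kinase of branched-chain ketoacid dehydrogenase also known to act on ATP citrate lyase, fell with the label (-0.43, adjusted p = 0.0853). Mlycd, which breaks malonyl-CoA down, rose in the cold under both labels (0.26 and 0.27). Prkab2 fell in the cold in Cre- libraries (-1.25, adjusted p = 0.0697) at medians of 2.54 and 2.23 CPM, with 1 warm library at 12.8.

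None of 8 genes of SREBP processing passed in any comparison. Srebf2, the paralog of Srebf1 that serves cholesterol synthesis, was at medians of 14.1 to 17.4 CPM over the groups, above Srebf1. Of 13 tested transcription partners 1 passed, Ppargc1b, a coactivator of SREBP1, which rose in the cold in Cre- libraries (0.49, adjusted p = 0.0233). Mlx, the partner of ChREBP on DNA, had values of 0.31 and 0.25 in the cold (adjusted p = 0.113 and 0.249), and Mlxip, the paralog of Mlxipl, -0.12 and -0.14.

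Of 13 genes that act after palmitate is made, 1 rose and 1 fell with the label at 8°C, and 5 rose in the cold in Cre- libraries and 6 in BATdKO libraries. Acsl5, an acyl-CoA synthetase, moved in the direction of Fasn at 8°C, with a fall under the BATdKO label (-0.49, adjusted p = 0.00679) and a rise in the cold in Cre- libraries (0.90). It also rose in the cold in BATdKO libraries (0.60). Dgat2, which makes triglyceride, went the other way. It ranged from 256 to 304 CPM (median 265) in Cre- 8°C and from 458 to 672 (median 506) in BATdKO 8°C (log2 fold change 0.95, SE 0.12, adjusted p = 3.8e-05), without overlap. In the cold it rose in BATdKO libraries (0.80) and had a value of -0.01 in Cre- libraries, and its interaction passed (0.81, adjusted p = 0.0715). Elovl6, which lengthens palmitate, rose in the cold under both labels (1.39 and 1.34), as did Gpam, of glycerolipid synthesis (0.37 and 0.29). Of 8 glucose-responsive ChREBP targets 1 passed in the cold, beside 9.15% of all genes in Cre- and 7.07% in BATdKO. It was Gpd1, glycerol-3-phosphate dehydrogenase, which rose in the cold under both labels (1.55 and 1.04) and had a value of -0.05 for the label at 8°C.

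**Figure D4:**
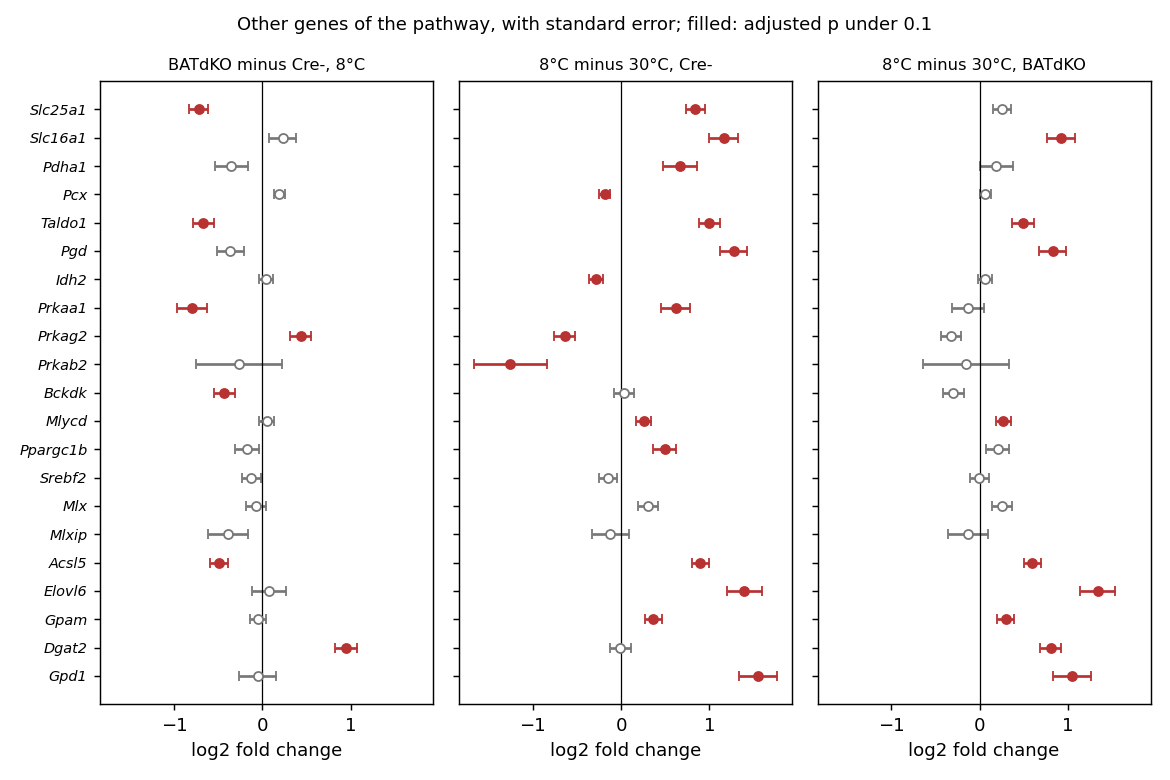
Fitted log2 fold changes with standard errors of 21 other genes of the pathway (horizontal axes) for genotype at 8°C, cold in Cre- and cold in BATdKO; filled red points have an adjusted p under 0.1. Slc25a1, Taldo1, Prkaa1, Bckdk and Acsl5 are filled below 0 for genotype at 8°C and Dgat2 and Prkag2 above 0, while Elovl6, Gpd1 and Pgd are filled above 0 in both cold comparisons.

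Members varied together among mice of the same group. After each gene's group means were removed, the 36 pairs of members had correlations of log2 CPM over 24 libraries with a median Pearson r of 0.48, and 34 were above 0. Over all pairs of the 12485 genes the median r was 0.000889 and 50.1% were above 0. Without the 2 libraries furthest from the median of the first gene of a pair, the members' median r was 0.356 and 32 were above 0, with Acaca and Acacb at 0.309 in place of 0.607 and Acaca and Thrsp at -0.0322 in place of 0.31. Fasn was closest to Acacb (r = 0.838), Acly (0.818), Acaca (0.781), Thrsp (0.74) and Me1 (0.70), which took places 2 to 44 among the 12485 genes, and further from Mlxipl (0.455) and Acss2 (0.291). Srebf1 had no such relation to Fasn (r = -0.000206). It had only 10 to 195 counts per library, the fewest of the members, and counting noise pulls a correlation toward 0. Outside the members the closest genes to Fasn were Ehd2 (r = 0.834, Spearman's rho 0.714), Tkt (0.823, 0.663), Fam53b (0.812, 0.683), Cd63-ps (0.796, 0.715) and Sh2b2 (0.786, 0.789). Tkt is the transketolase of the pentose phosphate pathway, Ehd2 a membrane protein of caveolae, and Sh2b2 an adaptor of the insulin receptor. Cd63-ps is a pseudogene at a mean of 3.25 CPM whose reads may belong to its parent gene. Among the most opposed were Dnase2b (-0.796), Tars (-0.762), Abca8a (-0.759) and Ddc (-0.725). These libraries share their tissue, depth and composition, and the correlations are descriptions.

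The liver marker share ran against most members. Within groups, its log2 had a Pearson r with log2 CPM of -0.743 for Acacb, -0.724 for Me1, -0.655 for Thrsp, -0.565 for Fasn, -0.431 for Acly and -0.426 for Acaca over the 24 libraries, of -0.333 for Srebf1, and of -0.0371 for Mlxipl and -0.0939 for Acss2. Without the 2 libraries furthest from the median share these were -0.807, -0.601, -0.617, -0.626, -0.372, -0.427, -0.201, -0.0774 and -0.0641. The BATdKO 8°C library with the lowest Fasn and Acaca, m6, had the highest liver share of the cold groups, at 4.85%, and the Cre- 8°C library with the lowest Fasn and Acaca, m2, had the next highest, at 4.79%. Without m6 the label difference at 8°C was -0.48 for Fasn (adjusted p = 0.107) and -0.77 for Acaca.

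**Figure D5:**
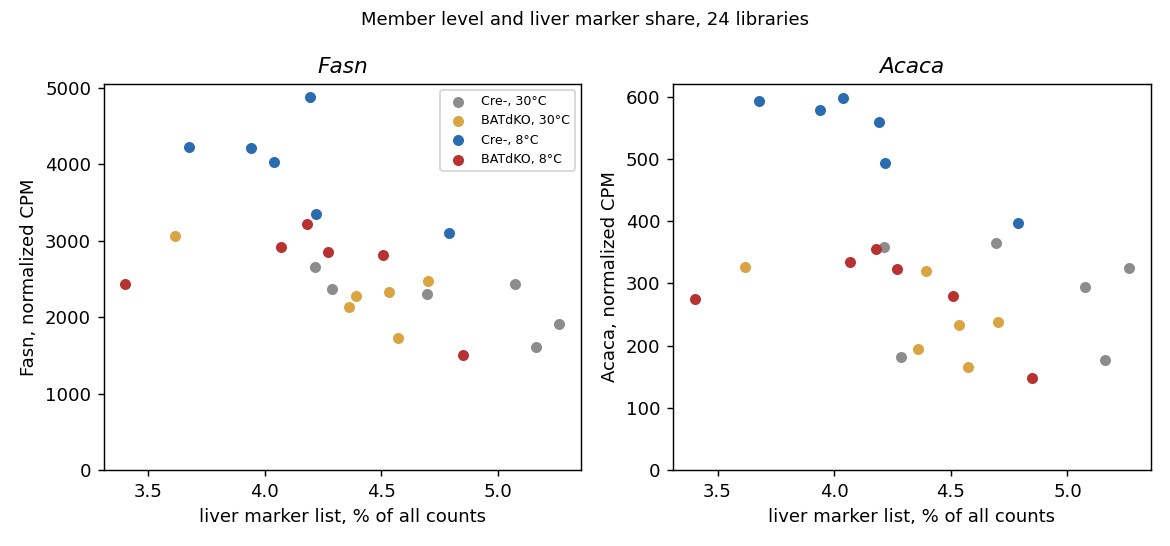
Fasn and Acaca in normalized CPM (vertical axes, from 0) against the share of counts held by 12 liver genes in percent (horizontal axis), 1 point per library, coloured by group. Libraries with a higher liver share tend to have less Fasn within a group. The libraries with the highest liver shares at 8°C are m6 of BATdKO (4.85%) and m2 of Cre- (4.79%). Each is the lowest of its group for both genes. No test was run for this figure.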

How the data were processed

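BAT RNA was sequenced as 3′ tags. Per the study's methods, forward reads were trimmed (BBDuk) and mapped to GRCm38 by STAR, and Rsubread assigned them to genes. The values the authors deposited are the resulting counts, with no normalization. The annotation release, the strand setting and the rule behind the genes left out are not given in the sources used here. The authors removed outliers that they do not name, and all 24 libraries were used here. The submitters' processing notes name DESeq2.

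Columns were matched to samples by the library names in the descriptions. No 2 libraries were identical, and every pair differed by more than sampling noise (chi-square per degree of freedom 2.71 or more). Nothing in the labels says more of the replicates than that they are separate mice. Symbols were matched for 12608 of 12615 genes.

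The counts were fitted in R 4.3.3 with edgeR 4.0.16 (limma 3.58.1): TMM, filterByExpr (130 genes removed), 1 quasi-likelihood model with a mean per group, and contrasts for genotype at 8°C and 30°C, cold in each genotype and the interaction. Calls have a Benjamini-Hochberg adjusted p under 0.1 over 12485 genes, the study's threshold. Standard errors are the absolute log2 fold change over the root of the F statistic, and 95% intervals are 1.96 standard errors either way. Ratios used counts plus 0.5 and exact permutation tests. In data simulated for genotype at 8°C on 12485 genes, with 200 changed 2-fold, edgeR recovered 85.5% and DESeq2 86%. They made 16 and 21 false calls. Every member's fitted change in this comparison was smaller than 2-fold, so these rates do not give the power for the members.

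The members and all lists were chosen with earlier results of these data known, and the study's text names Acaca, Fasn and Me1, so none is independent evidence. Genes named from the pathway lists are those of smallest p, up to 3 per direction, among calls for genotype at 8°C or cold in Cre-. Srebf2, Mlx and Mlxip were named in any case, and likeness to Fasn gave 5 genes at each end, of which 1 is not reported here. Intervals cover the spread between these mice only. Alternatives were DESeq2 1.42.0, RLE, no filter, a mean count of 10, robust dispersion, the 2 groups alone, no library under 1000000 counts, each mouse left out and, for ratios, a prior count of 5. Scaling by total count and marker shares as covariates were added after the data were seen.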

Additional observations from a re-analysis of the deposited data

Results flagged for a closer look

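In 44 groups of 6 values (9 members and both ratios by 4 groups), 7 had a lowest mouse standing apart from the others by a gap large against the range of the group. Chance gives such a value in about 1 of 20 independent groups. The 44 groups share 24 libraries and the members vary together, so their count cannot be set against that rate. Of the 7, 5 came from 1 library, m6 of BATdKO 8°C. It was lowest at 148.5 CPM for Acaca, 102.5 for Acacb, 1507 for Fasn and 214 for Acly, and its Acly to Acss2 ratio was 3.17. It had 5418509 counts, 0.404% of them in brown adipocyte genes, 4.85% in liver genes and 0.000757% in skeletal muscle genes, the last the lowest share of all libraries. The part of these shares in the low values was not tested in that library alone. The other 2 came from Cre- 8°C, where m2 was lowest for Acacb at 133.1 CPM and m5 for Srebf1 at 6.05 CPM, the latter from 41 counts.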

How the results depend on the processing

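No paired analysis was possible because the mouse numbers in the labels pair no mice between groups. For genotype at 8°C, 2 members were called in the model as reported. The count was 5 with only the compared groups in the model, 4 with scaling by total count, 1 with the skeletal muscle share as a covariate, and 1 to 2 when each mouse was left out. With the liver share as a covariate Me1 passed in edgeR's test (adjusted p = 0.04995) beside Acaca and Fasn. Cold in Cre- gave 5 to 6 members, cold in BATdKO 3 to 4, and genotype at 30°C and the interaction 0 under every alternative run. Over all genes, 227 were called for genotype at 8°C, 477 with only the compared groups and 145 with the muscle covariate. Scaling by total count brought the median of all genes to -0.20 in Cre- and -0.19 in BATdKO cold comparisons and called 3259 and 2812 genes in place of 1143 and 883, of which 13.3% and 9.07% were higher in place of 60.8% and 53.2%. The liver covariate left 704 calls for cold in Cre-. At 30°C DESeq2 called 90 genes and the muscle covariate 5 in place of 0, and for the interaction DESeq2 called 51, robust dispersion 21, total count 27, the liver covariate 22 and the muscle covariate 19 in place of 12. Leaving out 1 mouse gave 0 to 369 calls at 30°C (369 without m6 of Cre- 30°C), 138 to 276 for genotype at 8°C (138 without m5 of BATdKO 8°C), 7 to 37 for the interaction (37 without m2 of Cre- 8°C, 35 and 32 without m1 and m6 of Cre- 30°C), 791 to 1343 for cold in Cre- and 574 to 1069 for cold in BATdKO (574 without m4 of BATdKO 8°C). Under total count the log2 fold change of Acss2 in cold Cre- was -0.15, and in cold BATdKO that of Fasn was -0.025 and that of Mlxipl -0.028. With the liver covariate, Acss2 in cold Cre- was -0.00547, and at 30°C Acacb was -0.081, Fasn -0.073 and Srebf1 -0.018. The cause of these changes was not tested, and none of these 7 sign changes concerned a called value. Leaving out 1 mouse turned the sign of Acss2 in cold Cre- (-0.032 to 0.092), Srebf1 in cold BATdKO (-0.30 to 0.040), Acacb (-0.024 to 0.14), Fasn (-0.017 to 0.16) and Srebf1 (-0.068 to 0.28) at 30°C and the interaction of Mlxipl (-0.075 to 0.013). The log2 difference of the Acaca to Acacb ratio for cold in Cre- was 0.000993 with a prior count of 5, 0.093 without libraries under 1000000 counts and -0.20 to 0.093 without 1 mouse, and at 30°C it ran from -0.46 to -0.17 without 1 mouse. Srebf1 had 10 to 195 counts per library, the fewest of the members.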
